A study of Mus musculus with 10 samples.

Results

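The 10 genes described here are the transcription factor gene Atf4 and genes that it is known to control in the integrated stress response: Atf5, Atf3, Ddit3, Trib3, Asns, Psat1, Phgdh, Chac1 and Sesn2. They were chosen by name, with earlier results of these data known. All 10 were among the 22180 mouse genes with a measured transcript cluster, which is the array's unit for 1 gene. Each of the 10 had a single cluster, so no choice between clusters was needed.

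The livers came from fasted male mice that had been given an adeno-associated virus about 2 weeks earlier. The virus carries a TBG promoter, which is active in hepatocytes, and drives either FST288, an isoform of the activin-binding protein follistatin, or GFP as the control cargo. Livers labelled LTKO with the FST288 vector gave 2 arrays and LTKO livers with the GFP vector gave 2. Livers of wild-type mice fed high-fat diet (HFD) gave 3 arrays with the FST288 vector and 3 with the GFP vector. The labels do not spell out LTKO and give no diet for these mice, so genotype and diet cannot be told apart in any LTKO against HFD difference. All groups share the fast and a virus, and no untreated liver was analysed here.

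In the integrated stress response, kinases that sense amino acid shortage, misfolded protein in the endoplasmic reticulum, viral RNA or mitochondrial stress phosphorylate the translation factor eIF2α. Most protein synthesis then slows while the Atf4 transcript is translated more, and the ATF4 protein switches on genes for amino acid supply, redox balance and, under lasting stress, cell death. Because ATF4 is set largely at translation, its transcript and its protein can move apart, and these arrays measure transcripts only.

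ATF4 binds, with partners of the C/EBP family, a composite C/EBP-ATF response element. RefSeq promoters of all 10 genes (GRCm38.p6, 250 bases before to 50 bases after each start, 12 promoters in all) were searched on both strands for the letters TGATGNAAN. The letters stood in promoters of 4 genes, Atf3, Trib3, Asns and Chac1, and in 3.95% of the 32851 promoters of all genes. The promoters of Atf4, Atf5, Ddit3, Psat1, Phgdh and Sesn2 held no match in this window. The stretches around 3 of the matches are shown because Asns, the gene with the largest difference of the 10, and Atf3 and Chac1, which passed no test, all carry the element. Each is written 5′ to 3′ on its gene's strand, with the first 8 letters of the element, or their reverse complement, in capitals, and in Asns also GTTACA. The stretches lie at chr6:7693205-7693252 (minus strand) for Asns, chr1:191183416-191183463 (minus strand) for Atf3 and chr2:119351029-119351076 (plus strand) for Chac1.
Asns: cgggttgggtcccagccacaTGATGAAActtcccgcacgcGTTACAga
Atf3: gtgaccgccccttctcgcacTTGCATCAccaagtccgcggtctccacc
Chac1: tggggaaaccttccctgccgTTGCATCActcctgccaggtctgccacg

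Counted from 1 at the start of the gene, with no base 0, the Asns element lay at -23 to -16 on the gene's own strand. The elements of Atf3, at -110 to -103, and of Chac1, at -193 to -186, lay on the opposite strand. The letters GTTACA, known as a second amino acid response element in the human ASNS promoter, were searched after the sequence was seen. They lay at -3 to 3 in Asns and stood in 8.25% of all promoters. A match of letters is a description of the sequence and not a measured binding site.

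Albumin (Alb), the main plasma protein made by hepatocytes, lay between 13.05 and 13.21 on the log2 scale on all 10 arrays. Of 8 hepatocyte markers, 4 were lower and 0 higher in LTKO than in HFD livers with the GFP vector, with a median difference of -0.21, and 3 were lower and 1 higher with the FST288 vector. Among them Serpina1e, a protease inhibitor gene, lay between 8.43 and 9.04 in LTKO livers and between 10.38 and 11.23 in HFD livers. In HFD livers 3 of the 8 were lower with FST288 than with GFP. The part of these marker differences in the results was not tested. Fst, which the FST288 cargo encodes, was higher with FST288 than with GFP by 1.45 in LTKO livers (limma adjusted p = 0.0307) and by 1.08 in HFD livers (adjusted p = 0.0150). Irs1, Irs2 and Foxo1 were lower in LTKO than in HFD livers with the GFP vector, by -1.77, -1.21 and -1.68. On replicates 2 and 3 of the HFD FST288 livers, 11 of 12 measured pancreatic acinar markers were higher than on all other 8 arrays. The median of the acinar markers was 7.46 and 6.08 on those arrays and between 1.97 and 2.41 on the others. A fit without both of those arrays keeps 1 HFD FST288 array, so a call lost in it may be lost through having fewer arrays. A fit without 1 LTKO array likewise keeps 1 array of that group. On replicate 2 of the LTKO FST288 livers all 7 Kupffer cell markers were at their highest, with a median of 7.59 against 5.55 to 6.13 on the other 9 arrays. In bulk liver, fewer cells of a type and less RNA per cell cannot be told apart.

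With the GFP vector, 4 of the 10 genes rose in LTKO livers relative to HFD livers: Asns, Atf5, Sesn2 and Atf4. None of the 10 fell, and the other 6 did not pass the test. Over all 22180 genes, 6.69% were called higher, 6.40% lower and 13.1% in either direction (limma, adjusted p under 0.05 over all genes). The median difference of the 10 genes was 0.24 on the log2 scale, against 0.01 for all genes. Asns and Atf5 rose with the FST288 vector too, where 5.05% of all genes were called higher and 10.3% in either direction, and the median was 0.11 against 0.00. All 4 LTKO arrays lay above all 6 HFD arrays for Asns, Atf5 and Sesn2, a pattern that 6.82% of all genes showed. None of the 10 had all LTKO arrays below all HFD arrays, as 6.45% of all genes did. The 10 were chosen with earlier results of these data known, so these counts and medians are no independent test against all genes.

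**Figure D1:**
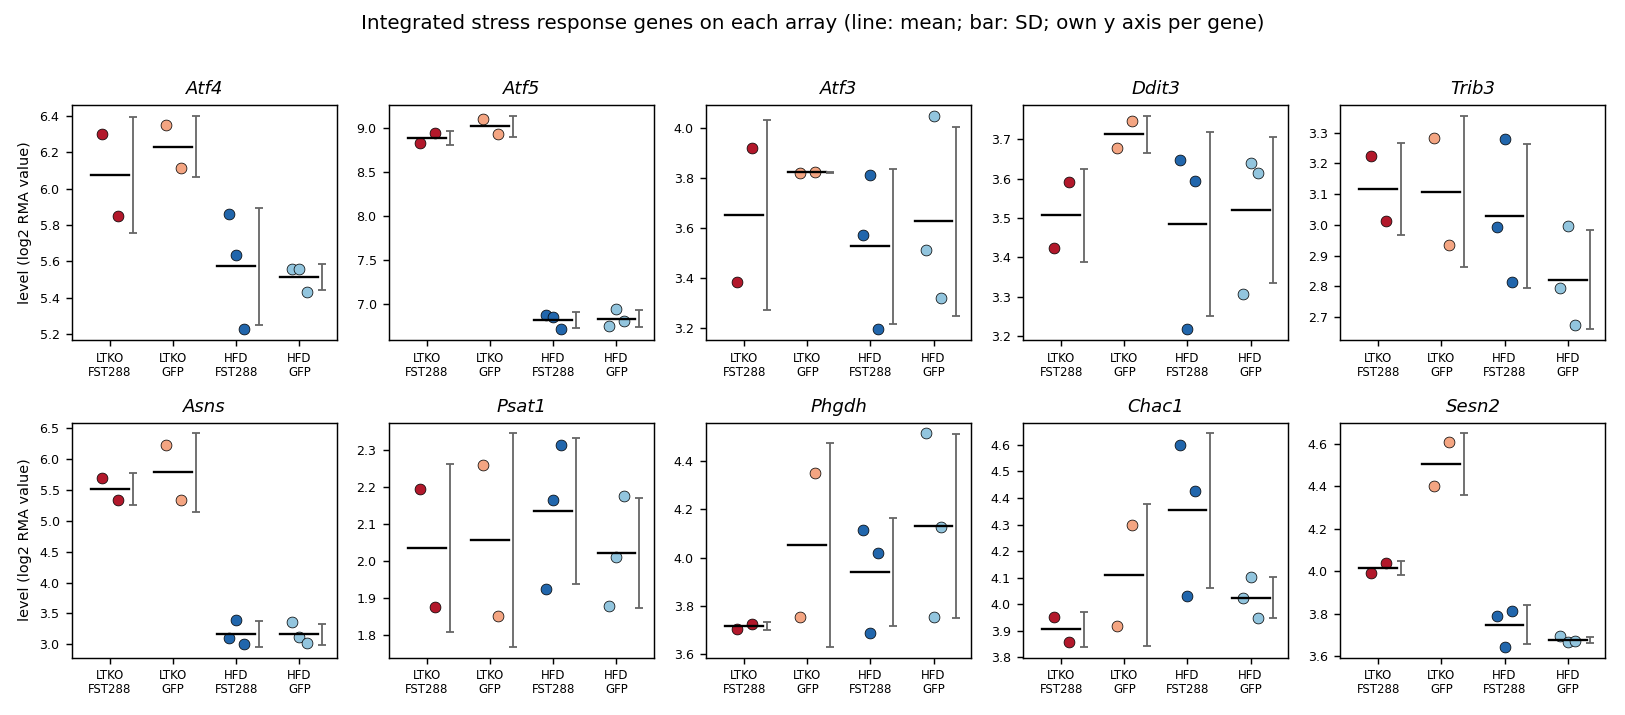
Level of each of the 10 genes on every array (log2 RMA value, an own y axis per gene), with LTKO livers left of HFD livers and FST288 left of GFP. Points are arrays, black lines group means and bars SD; Asns and Atf5 separate LTKO from HFD livers with both vectors, and Sesn2 is highest in LTKO livers with GFP.

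Asns encodes asparagine synthetase, which makes asparagine from aspartate and glutamine. Its level was 5.70 and 5.34 in LTKO livers with FST288 and 6.23 and 5.34 in LTKO livers with GFP. In HFD livers it was 3.09, 3.40 and 3.00 with FST288 and 3.35, 3.12 and 3.02 with GFP. These HFD levels were close to the array medians of 3.10 to 3.17 over all named genes. The lowest LTKO array stood far above the highest HFD array, and the 2 vectors overlapped within each background. The difference was 2.62 with the GFP vector ± 0.23 (SE), a 6.15-fold increase with a 95% interval of 4.36 to 8.69 (limma, adjusted p = 5.39e-06). Only 19 of the 22180 genes had a larger positive difference, which put Asns at rank 20. It was 2.35 ± 0.23 with the FST288 vector, or 5.12-fold (adjusted p = 1.44e-05). Without the HFD FST288 replicates rich in acinar markers it was 2.42, and without the LTKO FST288 replicate rich in Kupffer markers 2.54.

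Atf5 encodes a transcription factor related to ATF4, which controls genes of mitochondrial stress and is abundant in liver. It was 8.83 and 8.94 in LTKO livers with FST288 and 9.11 and 8.94 in LTKO livers with GFP. The HFD livers gave 6.87, 6.85 and 6.70 with FST288 and 6.75, 6.94 and 6.80 with GFP. LTKO and HFD livers lay far apart, while the SD within a group was between 0.08 and 0.12. LTKO livers exceeded HFD livers by 2.20 ± 0.10 with the GFP vector, or 4.58-fold with an interval of 3.94 to 5.33 (limma, adjusted p = 1.00e-08), and by 2.08 ± 0.10 with the FST288 vector (adjusted p = 2.46e-08). Without the HFD FST288 arrays rich in acinar markers the second difference was 2.01, and without the LTKO FST288 replicate rich in Kupffer markers 2.02.

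Atf4 itself showed a smaller difference. Its level was 6.30 and 5.85 in LTKO livers with FST288, 6.35 and 6.11 in LTKO livers with GFP, 5.86, 5.63 and 5.23 in HFD livers with FST288, and 5.56, 5.56 and 5.43 in HFD livers with GFP. The LTKO and HFD ranges touched at 1 pair of arrays, with LTKO FST288 replicate 2 at 5.85 and HFD FST288 replicate 1 at 5.86. LTKO livers with GFP were higher by 0.72 ± 0.18, or 1.64-fold (limma, adjusted p = 0.0164). That call was lost without LTKO GFP replicate 1 (adjusted p = 0.142) and without HFD GFP replicate 3 (adjusted p = 0.0556). Under FST288 the difference was 0.50 ± 0.18 and did not pass (adjusted p = 0.105). It was 0.22 without the HFD FST288 arrays rich in acinar markers (adjusted p = 0.759), and 0.65 and past the threshold without HFD FST288 replicate 1 (adjusted p = 0.0415). It was 0.33 without HFD FST288 replicate 3, 0.28 without LTKO FST288 replicate 1 (adjusted p = 0.580) and 0.73 without LTKO FST288 replicate 2 (adjusted p = 0.0544).

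Sesn2 encodes sestrin 2, a leucine sensor that holds back the growth kinase mTORC1. It was 3.99 and 4.04 in LTKO livers with FST288 and 4.40 and 4.61 in LTKO livers with GFP, against 3.79, 3.64 and 3.81 in HFD livers with FST288 and 3.69, 3.67 and 3.67 in HFD livers with GFP. The LTKO GFP arrays lay above the LTKO FST288 arrays, which lay above all HFD arrays. LTKO exceeded HFD livers with GFP by 0.83 ± 0.13, or 1.77-fold (limma, adjusted p = 0.000867). Under FST288 the difference was 0.27 ± 0.13 and did not pass (adjusted p = 0.280).

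Atf3 and Ddit3 encode stress-induced transcription factors; the product of Ddit3, CHOP, promotes cell death under lasting stress. Atf3 spread between 3.38 and 3.92 in LTKO livers and between 3.20 and 4.05 in HFD livers, so the HFD range enclosed the LTKO range. Ddit3 lay between 3.42 and 3.75 in LTKO livers and between 3.22 and 3.65 in HFD livers. The 2 differences with the GFP vector were 0.19 for Atf3 and 0.19 for Ddit3 (limma, adjusted p = 0.680 and 0.545). Trib3 encodes a pseudokinase that dampens AKT signalling and ATF4 itself. It ranged from 2.93 to 3.28 in LTKO livers and from 2.68 to 3.28 in HFD livers, close to the array medians of 3.10 to 3.17 over all named genes, and differed by 0.29 with the GFP vector (adjusted p = 0.360).

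Phgdh and Psat1 encode the opening enzymes of serine synthesis from glucose. Unlike Asns, neither passed the test, although all belong to the amino acid enzymes under ATF4. Phgdh ranged from 3.70 to 4.35 in LTKO livers and from 3.68 to 4.52 in HFD livers, and the difference with the GFP vector was -0.08 (limma, adjusted p = 0.885). Psat1 ranged from 1.85 to 2.26 in LTKO livers and from 1.88 to 2.31 in HFD livers, below the array medians. Its difference was 0.03 (adjusted p = 0.934).

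Chac1 encodes an enzyme that degrades glutathione and is a known ATF4 target. It was 3.95 and 3.86 in LTKO livers with FST288, 3.92 and 4.30 in LTKO livers with GFP, 4.60, 4.03 and 4.43 in HFD livers with FST288, and 4.02, 4.10 and 3.95 in HFD livers with GFP. Its highest values, 4.60 and 4.43, stood in HFD livers with FST288, on the opposite side from Asns and Atf5. Replicate 2 of that group, at 4.03, lay below LTKO GFP replicate 2 at 4.30. With the GFP vector LTKO livers differed from HFD livers by 0.09 (limma, adjusted p = 0.831). The LTKO against HFD difference with the FST288 vector was -0.45 ± 0.18 (limma, adjusted p = 0.146). It was -0.61 and past the threshold without HFD FST288 replicate 2 (limma, adjusted p = 0.0431), and -0.32 without HFD FST288 replicate 1. Without LTKO FST288 replicate 2, the array rich in Kupffer markers, it was -0.40, and without both arrays rich in acinar markers -0.69.

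**Figure D2:**
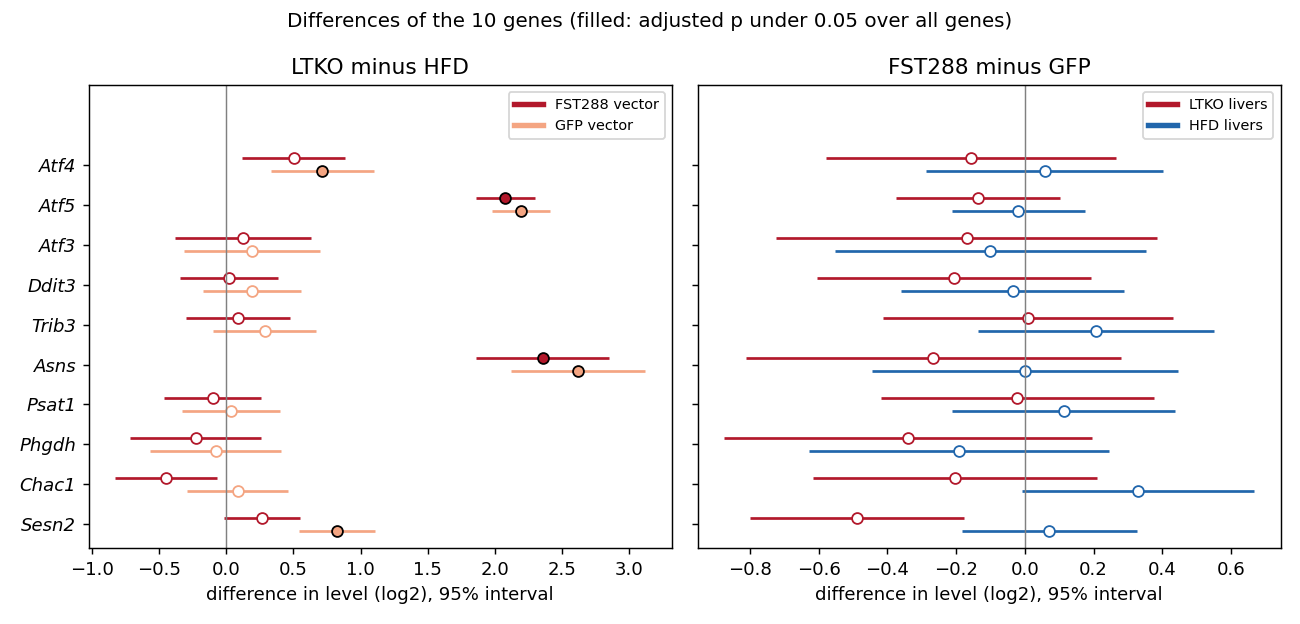
Differences in level (log2) of the 10 genes with 95% intervals: LTKO minus HFD within each vector on the left, FST288 minus GFP within each background on the right, filled where the limma adjusted p was under 0.05. The 6 filled points are Asns and Atf5 with both vectors and Atf4 and Sesn2 with the GFP vector, and no point is filled on the right.

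Whether follistatin in hepatocytes changed these transcripts was asked within each background. In LTKO livers 0 of the 10 passed the test (limma), where 0.167% of all genes did. At an unadjusted p under 0.05, 1 of the 10 passed and 9.98% of all genes did. That gene was Sesn2, lower with FST288 than with GFP by -0.49 ± 0.14 (unadjusted p = 0.00487, adjusted p = 0.271), with the FST288 arrays at 3.99 and 4.04 below the GFP arrays at 4.40 and 4.61. The differences of 9 genes were negative and that of Trib3 was positive at 0.01, with a median of -0.19 against -0.02 for all genes. The Asns difference was -0.27 ± 0.25 (adjusted p = 0.797). Its sign rested on single arrays: it was 0.18 without LTKO GFP replicate 1, -0.72 without LTKO GFP replicate 2, -0.45 without LTKO FST288 replicate 1 and -0.08 without LTKO FST288 replicate 2, the array rich in Kupffer markers. The 95% intervals of the 10 genes reached from -0.87, for Phgdh, to 0.43, for Trib3, so larger changes than these lay outside the intervals.

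In HFD livers 0 of the 10 passed as well, where 0.996% of all genes did. At an unadjusted p under 0.05 it was 0 of 10, against 12% of all genes. Asns had a difference of 0.00 with an interval of -0.45 to 0.45. The largest difference was that of Chac1, 0.33 ± 0.16 (limma, unadjusted p = 0.0555, adjusted p = 0.429), with 2 of the 3 FST288 arrays above all GFP arrays. It was 0.57 without both arrays rich in acinar markers (adjusted p = 0.693), 0.64 with the acinar level as a covariate (adjusted p = 0.520), and between 0.21 and 0.49 on leaving out 1 array, with the ends reached without HFD FST288 replicate 1 and replicate 2. Trib3 followed at 0.21 (adjusted p = 0.681) and Phgdh at -0.19 (adjusted p = 0.781), and leaving out 1 array moved them between 0.08 and 0.32 and between -0.38 and 0.00. Without both arrays rich in acinar markers Phgdh differed by -0.02 and Atf4 by 0.34, against 0.06 for Atf4 on all arrays. The intervals reached from -0.63, for Phgdh, to 0.67, for Chac1.

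The test of whether the FST288 difference itself differed between LTKO and HFD livers called 0 of the 10, where 0.216% of all genes were called. At an unadjusted p under 0.05 it was 1 of 10, against 12.6% of all genes. That gene was again Sesn2, with -0.56 ± 0.19 (limma, unadjusted p = 0.0101, adjusted p = 0.253). Chac1 had -0.53 ± 0.25 (limma, adjusted p = 0.398). It lay between -0.72 and -0.34 on leaving out 1 array, and was -0.78 without both arrays rich in acinar markers.

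Genes most like each called member were ranked by Pearson's r over the 10 arrays. Predicted and clone-named genes, small RNA and olfactory receptor genes, and symbols starting with Rn or mt- were left out of the ranking. The remaining named genes most like Asns were Serinc2 (0.987), Pon1 (0.987) and Cyp3a25 (0.986). Those most like Atf5 were Ehhadh (0.995), Bckdhb (0.993) and Ctse (0.993). For Sesn2 they were Hnf4a (0.973), Rtn3 (0.971) and Slc11a2 (0.970), and for Atf4 Vmn1r53 (0.956), Wdr77 (0.950) and Mob2 (0.949). Over the 8 arrays without the HFD FST288 replicates rich in acinar markers these r values lay between 0.927 and 0.998. The arrays fall into LTKO and HFD livers, so each r mainly describes a shared difference between these backgrounds, and it carries no test.

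Upstream of ATF4, 9 of 10 listed eIF2α kinases and phosphatase regulators were measured. With each vector 1 of the 9 fell in LTKO livers and 0 rose, a share near those of all genes called in either direction, 13.1% with GFP and 10.3% with FST288. The gene that fell was Eif2ak2, which encodes PKR, the kinase that answers double-stranded RNA and interferon. Its difference was -1.14 ± 0.13 with the GFP vector (limma, adjusted p = 6.54e-05) and -0.61 ± 0.13 with the FST288 vector (adjusted p = 0.00945), the second of which was lost without the HFD FST288 arrays rich in acinar markers (adjusted p = 0.219) and without LTKO FST288 replicate 1 (adjusted p = 0.111). Eif2ak3, the kinase PERK of the endoplasmic reticulum, differed by 0.13 with the GFP vector (adjusted p = 0.578). Eif2ak4, the amino acid sensor GCN2, differed by -0.20 (adjusted p = 0.435). Impact, whose product restrains GCN2, differed by 0.42 with the FST288 vector (adjusted p = 0.0787). Ppp1r15a, which encodes the eIF2α phosphatase subunit GADD34, differed by 0.29 between FST288 and GFP in HFD livers (adjusted p = 0.449).

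Among 16 of 17 listed other genes known to answer ATF4, 2 rose and 5 fell in LTKO livers with the GFP vector, and 3 rose and 5 fell with the FST288 vector. Of all genes, 6.69% rose and 6.40% fell with GFP, and 5.05% rose and 5.29% fell with FST288. The largest increase was that of Fgf21, a hormone that the liver releases in fasting. Fgf21 was 4.70 and 6.40 in LTKO livers with FST288 and 7.10 and 6.59 in LTKO livers with GFP. In HFD livers it was 3.44, 3.93 and 3.49 with FST288 and 3.60, 3.64 and 3.91 with GFP. All LTKO arrays exceeded all HFD arrays, and the LTKO FST288 replicates were the farthest apart. The difference was 3.13 ± 0.35 with the GFP vector, or 8.73-fold (limma, adjusted p = 4.84e-05), and 1.93 ± 0.35 with the FST288 vector (adjusted p = 0.00256). The difference with FST288 was 1.08 without LTKO FST288 replicate 2, the array rich in Kupffer markers, and 2.78 without LTKO FST288 replicate 1. Between the vectors in LTKO livers Fgf21 differed by -1.29 ± 0.39 (limma, adjusted p = 0.271). The size rested on single arrays: it was -2.14 without LTKO FST288 replicate 2 and -0.44 without LTKO FST288 replicate 1.

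Sqstm1, the autophagy adaptor p62, rose by 1.09 with the GFP vector (limma, adjusted p = 9.08e-06) and by 0.89 with the FST288 vector. Vldlr, the very-low-density lipoprotein receptor, rose by 1.82 with the FST288 vector (adjusted p = 0.00110) and differed by 0.90 with the GFP vector (adjusted p = 0.0680). The FST288 value of Vldlr was 1.25 without LTKO FST288 replicate 1 and 2.39 without LTKO FST288 replicate 2. The 5 genes that fell with each vector were the same: Ddit4, an inhibitor of mTORC1, Cebpb, a partner of ATF4, Sesn3, a sestrin, Klhl24 and Rcan1, an inhibitor of calcineurin. Sesn3 fell by 1.58 with the GFP vector and by 1.21 with the FST288 vector (adjusted p = 7.05e-06 and 8.08e-05), the reverse of its relative Sesn2 with the GFP vector. Ddit4 fell by 1.40 and 1.26, and Cebpb fell by 0.80 and 0.69. Rcan1 was the single gene of all lists called between vectors within a background. Of all genes, 0.996% were called between vectors in HFD livers and 0.167% in LTKO livers. FST288 exceeded GFP for Rcan1 in HFD livers by 0.76 ± 0.13 (limma, adjusted p = 0.0114). That call was lost without either of the arrays rich in acinar markers and without HFD GFP replicate 2 (adjusted p = 0.0585 to 0.0735). It was also lost without both arrays rich in acinar markers, where the difference was 0.59.

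**Figure D3:**
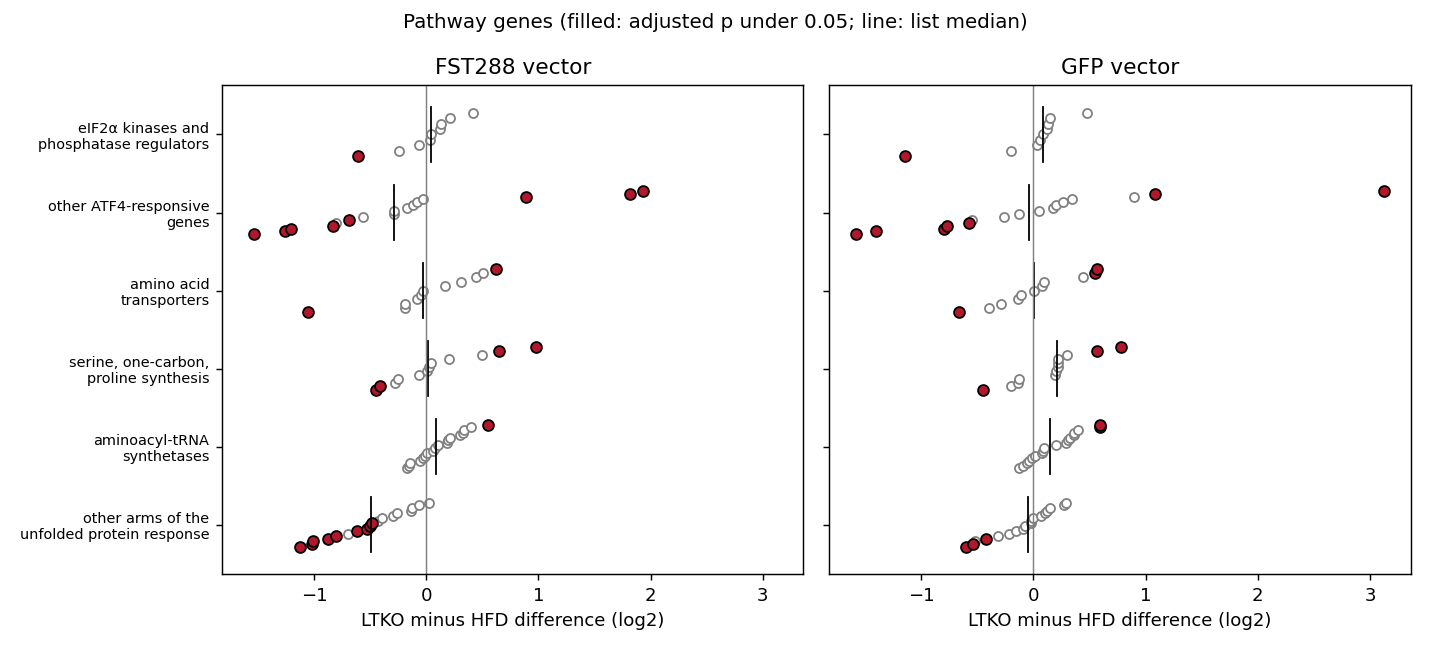
LTKO minus HFD difference (log2) of each gene in the 6 pathway lists, with the FST288 vector on the left and the GFP vector on the right; filled points passed limma's adjusted p under 0.05 and lines mark list medians. The other ATF4-responsive genes spread to both sides of 0, and the other arms of the unfolded protein response lie mostly below 0 with the FST288 vector.

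Of the amino acid transporters known to answer ATF4, 11 of 12 were measured. In LTKO livers with GFP 2 rose, Slc7a5 and Slc3a2, whose products pair to carry leucine and other large neutral amino acids, and 1 fell, Slc38a2, a sodium-coupled carrier of small neutral amino acids. Slc3a2 rose by 0.55 ± 0.13 (limma, adjusted p = 0.0102) and Slc7a5 by 0.57 ± 0.16 (adjusted p = 0.0280), and Slc38a2 fell by 0.66 (adjusted p = 0.00886). The level of Slc7a5 was low, at 3.35 and 3.27 in LTKO and 2.88, 2.58 and 2.77 in HFD livers with GFP. The array medians over all named genes were 3.10 to 3.17. Under FST288 1 rose, Slc3a2 by 0.62 (adjusted p = 0.00592), and 1 fell, Slc38a2 by 1.06 (adjusted p = 0.000330). Of all genes, 13.1% were called in either direction with GFP and 10.3% with FST288. The Slc3a2 call with FST288 was lost without the arrays rich in acinar markers (adjusted p = 0.178) and without LTKO FST288 replicate 2 (adjusted p = 0.104). All 3 GFP vector calls were lost without LTKO GFP replicate 1 (adjusted p = 0.0803 to 0.148), and that of Slc7a5 also without LTKO GFP replicate 2 and without HFD GFP replicate 2 or 3 (adjusted p = 0.0591 to 0.0930).

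Of the list of serine, glycine, folate-linked and proline synthesis, 12 of 14 genes were measured. With GFP 2 rose and 1 fell, and with the FST288 vector 2 rose and 2 fell, where 13.1% and 10.3% of all genes were called in either direction. Cbs and Cth, whose products turn homocysteine into cysteine, were the 2 that rose with each vector. Cbs rose by 0.78 ± 0.09 with GFP (limma, adjusted p = 8.67e-05) and by 0.97 ± 0.09 with FST288, and Cth by 0.57 ± 0.10 and 0.65 ± 0.10. Gpt2, a mitochondrial alanine aminotransferase, fell by 0.45 with each vector, and Shmt1, a cytosolic enzyme linking serine and glycine, fell by 0.42 with FST288 (adjusted p = 0.0227). Without the arrays rich in acinar markers Shmt1 differed by -0.31 and lost its call (adjusted p = 0.407). In the same fit Gpt2 differed by -0.50 with FST288 and by -0.45, as before, with GFP, whose arrays were all kept, and neither passed (adjusted p = 0.190 and 0.0538). Without LTKO FST288 replicate 2 or HFD FST288 replicate 3 both FST288 calls were lost, as was that of Gpt2 without HFD FST288 replicate 1 and that of Shmt1 without HFD FST288 replicate 2. Gpt2 with GFP was also lost without LTKO GFP replicate 1 or HFD GFP replicate 3. The next list held mainly cytosolic aminoacyl-tRNA synthetases, which load amino acids on tRNA, and 18 of its 20 genes were measured. Among the 18 were also Fars2, a mitochondrial synthetase, and Xpot, which exports tRNA from the nucleus and loads no amino acid. The called counts of the list can be read against 6.69% of all genes higher with GFP and 5.05% with FST288. In LTKO livers with GFP 2 rose and 0 fell, Sars and Mars1, each by 0.59 (adjusted p = 0.00128 and 0.0125). The Mars1 call was lost without LTKO GFP replicate 1 (0.37, adjusted p = 0.170) or HFD GFP replicate 1. Under FST288 1 rose and 0 fell, Hars by 0.55 (adjusted p = 0.0147). That call was lost without HFD FST288 replicate 3 and without either LTKO FST288 replicate. It was also lost without both arrays rich in acinar markers, where the difference was 0.37 with 1 HFD FST288 array left.

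**Figure D4:**
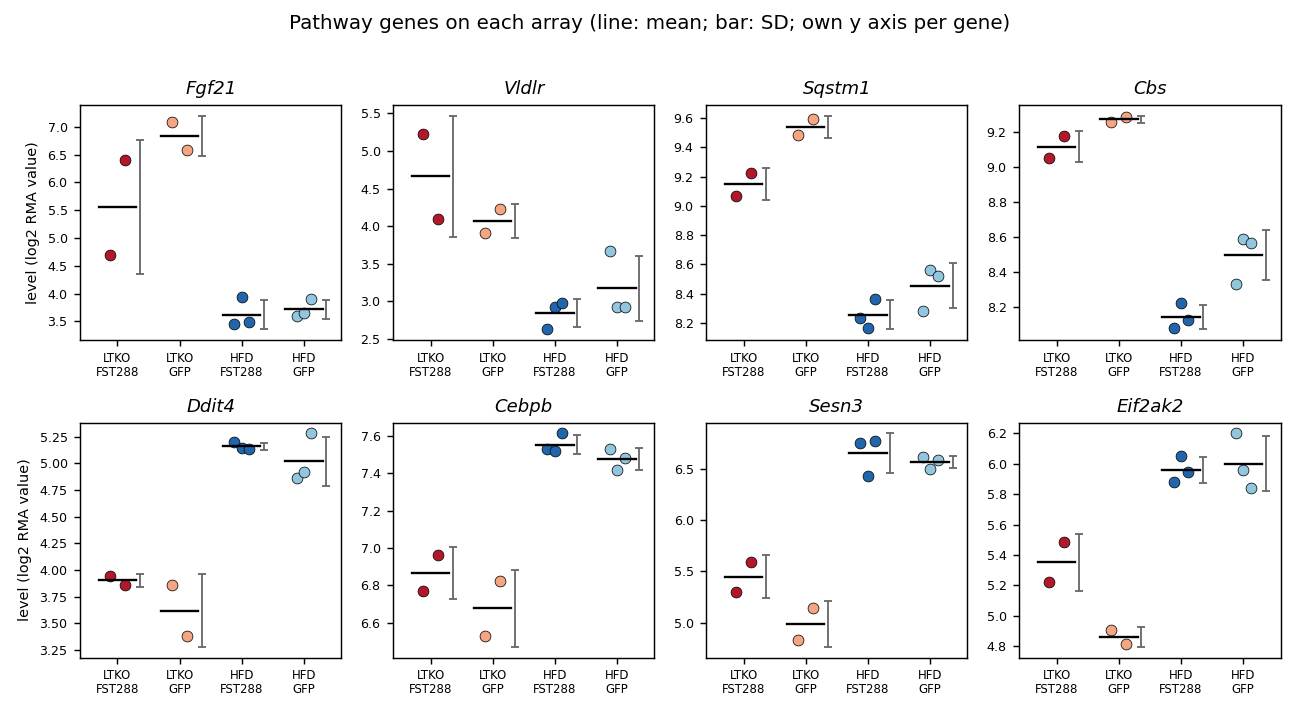
Level of 8 pathway genes on every array (log2 RMA value, an own y axis per gene), with LTKO livers left of HFD livers; points are arrays, black lines group means and bars SD. The 8 were picked from genes called in LTKO against HFD livers and do not stand for their whole lists. The upper 4 genes are higher in LTKO livers on every array, as 6.82% of all genes were. The lower 4 are lower on every array, as 6.45% of all genes were.

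The other arms of the unfolded protein response, which run through IRE1 and ATF6 rather than PERK, were covered by 18 of 19 listed genes. In LTKO livers with GFP 0 rose and 3 fell, Calr, Dnajb11 and Atf6, where 6.40% of all genes were called lower, and of which only Atf6 passed without LTKO GFP replicate 1. Under FST288 0 rose and 9 fell, where 5.29% of all genes were called lower: Hspa5, Pdia6, Calr, Hyou1, Dnajb11, Xbp1, Ern1, Atf6 and Herpud1, most of which encode chaperones or sensors of the endoplasmic reticulum. Herpud1 fell by 1.12, Ern1, the gene of the sensor IRE1, by 1.01, and Hyou1 by 1.01. The count was 2, Ern1 and Atf6, without the HFD FST288 arrays rich in acinar markers, where 2.34% of all genes were called lower, and 4 with the acinar level as a covariate, where 2.60% were. Herpud1, Ern1 and Hyou1 differed by -1.05, -0.94 and -0.67 without both of those arrays. With the covariate, which keeps all arrays, they differed by -1.02, -0.91 and -0.60. Atf6 and Xbp1 lay further from 0 without both arrays than with all, at -0.67 and -0.55. In LTKO livers FST288 against GFP called 0 of the 18 (limma), with a median of -0.39 against -0.02 for all genes. At an unadjusted p under 0.05 it was 9 of the 18, where 9.98% of all genes passed. The 2 LTKO GFP arrays lay apart, with Herpud1 at 9.09 and 9.96 and Hyou1 at 7.39 and 8.10. On leaving out 1 array the Herpud1 difference lay between -1.15 and -0.28 and that of Hyou1 between -0.98 and -0.27. Ern1 lay between -0.80 and -0.39 and Hspa5 between -0.63 and -0.34. In HFD livers FST288 against GFP called 0, with 2 at an unadjusted p under 0.05, where 12% of all genes were.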

How the data were processed

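Per the labels' protocols, total RNA was prepared with an organic reagent and columns and hybridised as biotin-labelled DNA, 1 array per liver sample. The deposited table gives log2 expression values; the authors used Affymetrix Expression Console with RMA, per the submitters' processing notes. RMA corrects background, sets all arrays to 1 distribution and summarises probes. The base of the logarithm and the genome build are not given in the sources used here; log2 was read from the use of RMA and the range of 0.64 to 13.21. The table holds 41345 clusters, of which 23521 have 1 symbol, 1814 several and 16010 are unlisted; clusters with 1 symbol were used, and the brightest by mean stood for the 1082 genes with several. An array has no counting depth, and precision is limited by how few arrays there are.

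limma 3.58.1 in R 4.3.3 was fitted to all 22180 genes and 10 arrays with 1 mean per group and an intensity trend in the variance. It was tested on simulated data. The p-values are two-sided and adjusted by Benjamini-Hochberg over all genes within each of 5 contrasts, and a call is an adjusted p under 0.05. An interval is 95%. The labels do not say that samples are separate animals, so p-values reflect only how these samples vary, which may be technical. The members and lists were chosen with earlier results of these data known. All 10 genes are named, and from each list the genes called in any contrast, filled up to 3 by smallest p; Eif2ak3 and Eif2ak4 were added after their values were seen. Same-numbered samples did not deviate together (r from -0.0685 to 0.0336), so no block was used. Alternatives numbered 23. Motif shares are over RefSeq promoters of GRCm38.p6.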

Additional observations from a re-analysis of the deposited data

Results flagged for a closer look

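Of the 40 genes named by the rule above, the FST288 differences of 3 pathway genes ran in opposite directions in the 2 backgrounds. Every FST288 array lay below every GFP array in LTKO livers and above in HFD livers, as for 2.12% of all 22180 genes. All 3 were named because they were called, each lower in LTKO than in HFD livers with the FST288 vector. Such a call favours this pattern, so the count cannot be weighed against the share of all genes. Of the 3, Xbp1 and Shmt1 did not pass the test of whether the FST288 difference differed between the backgrounds. Ern1, the gene of IRE1, was 6.13 and 6.17 with FST288 and 6.54 and 6.95 with GFP in LTKO livers, and 7.09, 7.26 and 7.14 with FST288 and 6.64, 6.63 and 6.76 with GFP in HFD livers. The difference between the backgrounds was -1.08 ± 0.17 (limma, adjusted p = 0.0296). It was called in 3 of the 10 fits that leave out an array, and not without the HFD FST288 arrays rich in acinar markers. Xbp1, the transcription factor that IRE1 activates by splicing, differed by -0.60 (adjusted p = 0.0882). Shmt1 differed by -0.63 (adjusted p = 0.113).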

How the results depend on the processing

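The 50 member results (10 genes in 5 contrasts) were recomputed under up to 23 alternatives, 1110 values in all. In 1105 the direction of a called gene and the side of the threshold were kept, in 3 a call was lost and in 2 one was gained. In 0 a called gene changed sign, and 61 uncalled values changed sign. Only 4 of the 50 results with the GFP vector and 2 with the FST288 vector were called in the main fit, all LTKO against HFD. An uncalled value that stayed uncalled counts as kept, so the 1105 mainly describe uncalled results. All 3 lost calls were those of Atf4 with the GFP vector. Asns and Atf5 kept their calls with both vectors in every alternative, with Asns between 2.17 and 3.07 (GFP) and 2.17 and 2.54 (FST288). Sesn2 with the GFP vector kept its call in all 22 alternatives that test it, at 0.72 to 0.93; the filter that leaves out genes with a mean under 4 removes it. Atf4 with the GFP vector ranged from 0.60 to 0.84 and lost its call in the fit of all transcript clusters (adjusted p = 0.0595) as well as without either array named above.

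The count of the 10 genes called was 3 to 4 for LTKO against HFD with the GFP vector, 2 to 3 with the FST288 vector, and 0 in every alternative of the other 3 contrasts. Over all genes, FST288 against GFP called 37 in LTKO livers (0 to 237) and 221 in HFD livers (6 to 411), their interaction 48 (1 to 266), and LTKO against HFD 2902 with GFP (1870 to 3920) and 2293 with FST288 (939 to 3011). The lowest counts of 6, 1 and 939 came without the HFD FST288 arrays rich in acinar markers, and 237 and 266 without LTKO FST288 replicate 1. A count of 0 came from fitting the LTKO arrays alone and 1870 from leaving out LTKO GFP replicate 1. With the replicate number as a block, 4 and 2 of the 10 genes were called in LTKO against HFD livers with GFP and FST288, as without it, and 0 in the others; 0 of 6 HFD samples correlated best with their own number. The block changed the counts over all genes by less than 1.5 times. Of 3405 values of the named pathway genes, 80 lost a call, 41 gained one and 0 reversed. Psat1 lies below the array medians on all 10 arrays.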
